A study of Arabidopsis thaliana with 8 samples.

Results

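The peaks described here are the m6A peaks listed at the 5′ end of transcripts in Arabidopsis thaliana seedlings. They were chosen by position alone, as every listed peak that starts within the first 100 bases of its gene's model, whatever its enrichment. There were 3442 of them among 41217 listed peaks, 1667 in the list of the demethylase mutant atalkbh10b-1 and 1775 in the wild-type list. Seedlings of both genotypes were of the Columbia-0 ecotype and 14 days old, and the mutant is labelled atalkbh10b -/-, a homozygous lesion in the gene of an m6A demethylase. Poly(A) RNA was fragmented and pulled down with an m6A antibody, and 2 pull-down and 2 input libraries per genotype are labelled as biological replicates. Nothing further says whether the replicates were grown apart, and all tests rest on the variation among these libraries alone. The values are the authors' log2 enrichments of each peak in each replicate, and the depth behind them is unknown.

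N6-methyladenosine (m6A) is a methyl mark on adenosines within messenger RNA, added by a writer complex around the methyltransferase MTA, removed by demethylases such as ALKBH10B and bound by reader proteins with a YTH domain. In plants, as in animals, most m6A lies near the stop codon and in the 3′ untranslated region, with a smaller share around the start codon and the leader. The leader is where the cap-binding complex and the scanning ribosome act, and in mammals the same kind of antibody also binds a dimethylated adenosine next to the cap. The lists do not give the base that is methylated, so a peak here is a window of enriched fragments.

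The first 100 bases held more peak starts than any later 100-base interval among the first 3000 bases. The next interval, ending at base 200, held 953 peak starts in the mutant and 894 in wild type, and the count was lowest, among intervals up to base 1000, between bases 300 and 400, with 666 in the mutant and 629 in wild type. The first interval thus held 2.50 times as many starts as that minimum in the mutant and 2.82 times as many in wild type. Counts were not scaled to the number of gene models long enough to reach each interval. As a share of all peaks, those at the 5′ end made up 8.05% of the mutant list (exact binomial 95% interval 7.69 to 8.43, counting error only) and 8.65% of the wild-type list (8.27 to 9.04). With 1 list per genotype, this difference has no replicate check. Gene strand was not in the annotation used, so that base 1 is the transcribed 5′ end for genes of both strands was not tested.

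**Figure D1:**
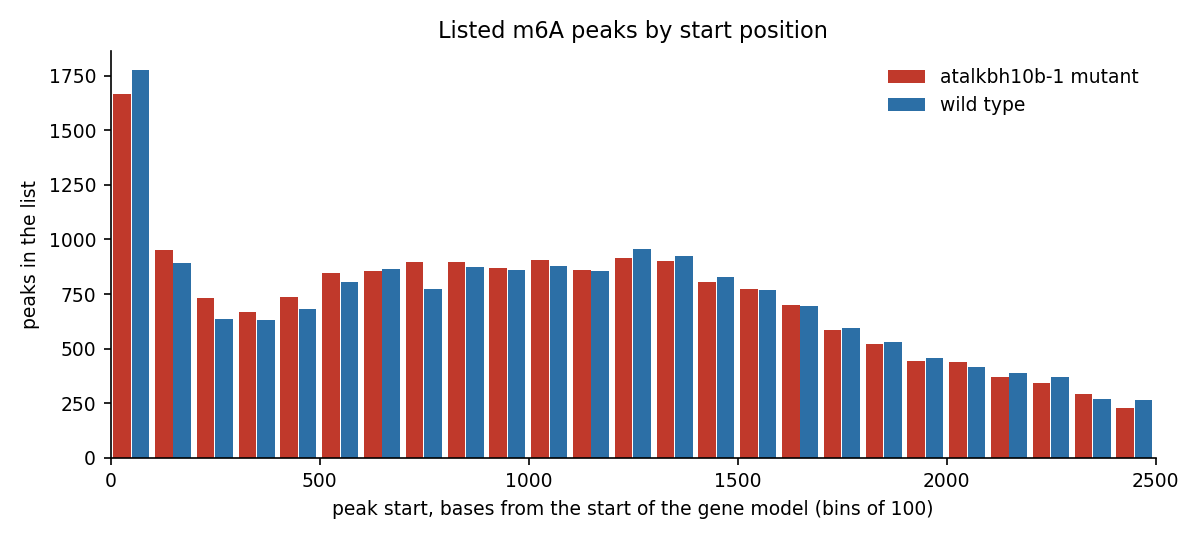
Number of listed m6A peaks (y axis) by the position of their start along the gene model in bases (x axis, bins of 100), for the mutant (red) and wild type (blue). The first bin holds 1667 mutant and 1775 wild-type peaks, and the bin from 300 to 400 holds 666 and 629.

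Within these bases the starts were spread along the whole interval, with an excess at base 1. At base 1 itself started 151 mutant peaks and 176 wild-type peaks. Each 5′-end peak lay in a gene of its own. Its median width was 155 bases in both lists, against 157 bases for all other mutant peaks and 158 for all other wild-type peaks. No listed peak was narrower than 100 bases, so each 5′-end peak covers base 100, and any 2 of them in 1 gene overlap. Most genes with a 5′-end peak had further peaks downstream, 1250 of 1667 in the mutant (75.0%) and 1329 of 1775 in wild type (74.9%). The peak at the 5′ end was the gene's single listed peak in 417 mutant and 446 wild-type genes. Protein-coding genes carried 97.5% of the 5′-end peaks in each list, and long non-coding RNA genes carried 16 in the mutant and 20 in wild type. Of the transcripts of the organelle genomes, 5 plastid and 4 mitochondrial genes had one in the mutant, and 1 plastid and 4 mitochondrial genes had one in wild type.

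Enrichment at the 5′ end was lower than elsewhere in all 4 libraries. In the mutant, the median log2 enrichment of 5′-end peaks was 2.1 in replicate 1 and 1.86 in replicate 2, and that of all other peaks was 2.51 and 2.32. In wild type, it was 1.83 and 1.90 for 5′-end peaks and 2.49 and 2.50 for all other peaks. The 5′-end median was therefore lower by a mean of -0.44 ± 0.03 (SD, n = 2) in the mutant and -0.63 ± 0.04 in wild type. An exact two-sided sign permutation over the 4 libraries gave p = 0.125, the smallest it can give.

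Peaks just downstream had lower levels still. Peaks that started after base 100 and up to base 500 had medians of 1.94 and 1.59 in the mutant and 1.77 and 1.64 in wild type, and against these the 5′-end peaks were higher in all 4 libraries, by 0.22 ± 0.08 in the mutant and 0.16 ± 0.15 in wild type (exact p = 0.125, the smallest possible). Enrichment increased further downstream. Peaks starting beyond base 3000 had medians of 2.97 and 2.79 in the mutant and 3.06 and 3.07 in wild type. Only long gene models can hold such peaks, and gene length was not taken into account.

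**Figure D2:**
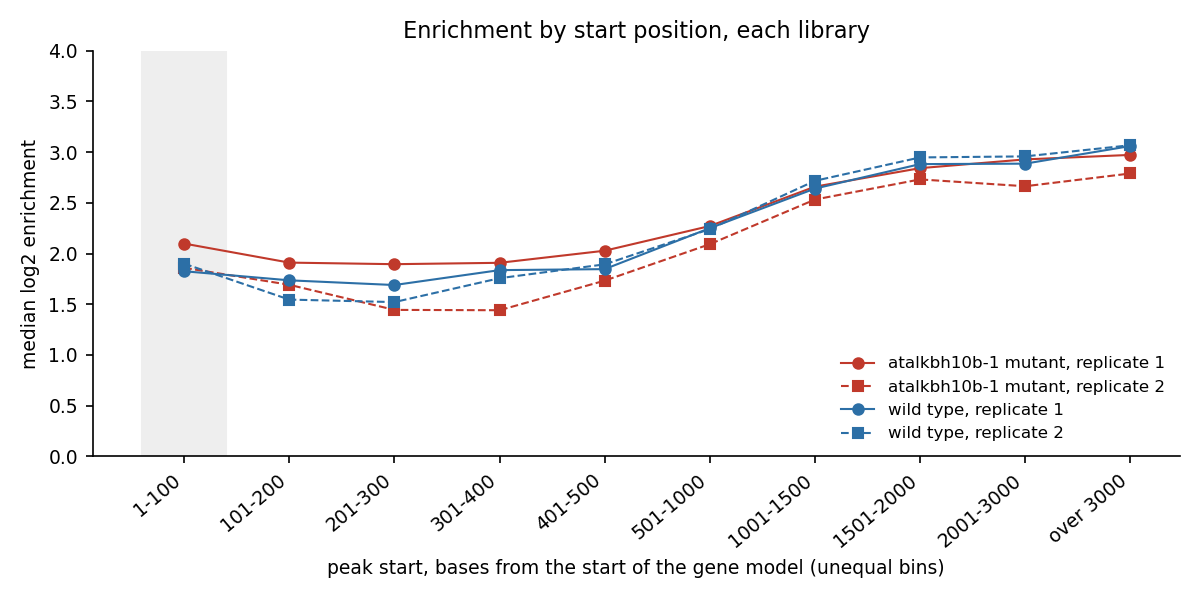
Median log2 enrichment (y axis) of peaks grouped by start position along the gene model (x axis, unequal bins) in each of the 4 libraries; red is the mutant and blue is wild type, and the shaded bin holds the 5′-end peaks. Medians in the shaded bin lie between 1.83 and 2.1, and beyond base 3000 between 2.79 and 3.07.

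Values on either side of base 100 were close. Peaks that started at bases 91 to 100 numbered 141 in the mutant and 156 in wild type, and those starting in the 10 bases after the threshold numbered 118 and 127. Inside the threshold the median enrichment was 1.89 and 1.55 in the mutant and 1.92 and 1.63 in wild type. Outside it was 2.05 and 1.69 in the mutant and 1.75 and 1.64 in wild type.

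The peaks cut at base 1 stood apart from the other 5′-end peaks. Their medians were 2.47 and 3.16 in the mutant and 2.32 and 2.95 in wild type, against 2.08 and 1.79 in the mutant and 1.80 and 1.83 in wild type for 5′-end peaks that started later. Their replicates lay further apart, by a median of 2.76 in the mutant and 2.44 in wild type on the log2 scale, against 1.66 and 1.28 for the later starts. They were also narrower, with a median width of 127 bases in the mutant and 130 in wild type.

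Within genes, the 5′-end peak was again the weaker one, and by less in the mutant. Among the 1250 mutant genes with a 5′-end peak and at least 1 other peak, the 5′-end peak minus the mean of the gene's other peaks had a median of -0.17 in replicate 1 and -0.28 in replicate 2. Among the 1329 wild-type genes it was -0.51 and -0.57. The 5′-end peak was the lower one in 54.8% and 54.5% of the mutant genes and in 61.5% and 61.2% of the wild-type genes.

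Both mutant libraries thus lay above both wild-type libraries in this measure, by 0.31 between the means, and likewise in the comparison with all other peaks, by 0.19. With 2 libraries per genotype an exact two-sided permutation of the genotypes gave p = 0.333 in each case, the smallest it can give, so neither difference can pass a threshold of 0.05. In genes with a single listed peak the genotypes overlapped, with -0.85 and -1.17 in the mutant against -1.05 and -1.07 in wild type, and they also overlapped when the gene's highest other peak replaced the mean, with -0.54 and -0.88 against -0.85 and -0.98. Whether the number of peaks listed per gene takes part in the difference was not tested.

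**Figure D3:**
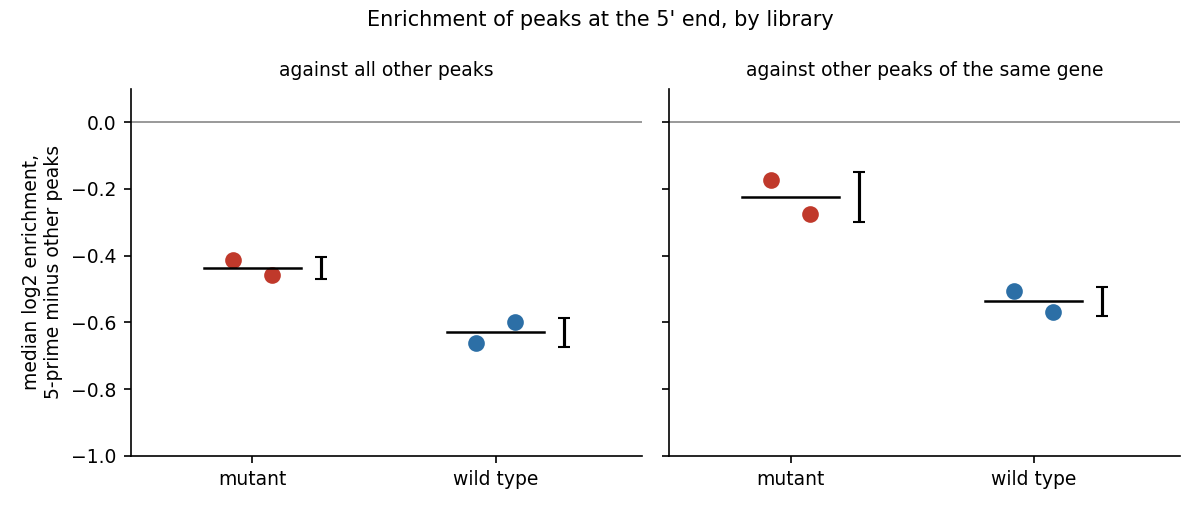
Median log2 enrichment of 5′-end peaks minus that of all other peaks (left) and minus the mean of the other peaks of the same gene (right), y axis, in mutant and wild type; points are libraries, horizontal lines the mean and bars 1 SD (n = 2). All 8 points lie below 0, and the mutant points lie above the wild-type points in both panels.

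A smaller share of peaks at the 5′ end than of other peaks was listed in both genotypes. Of the mutant 5′-end peaks, 998 (59.9%, exact binomial 95% interval 57.5 to 62.2) overlapped a wild-type peak of the same gene by at least 1 base, against 70.1% (69.5 to 70.8) of all other mutant peaks. Of the wild-type ones, 1020 (57.5%, 55.1 to 59.8) overlapped a mutant peak, against 70.5% (69.9 to 71.2). Over all peaks of either kind the shares were 69.3% in the mutant and 69.4% in wild type. The 4 bins of 100 bases that follow had similar shares, from 51.6% to 58.6% in the mutant and from 55.0% to 62.8% in wild type, and in each bin beyond base 1000 the share was at least 73.0% in both lists. Peaks are not replicates, so these intervals describe the 2 lists.

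The lowest shares within the interval belonged to peaks cut at base 1, of which 40.4% were shared in the mutant and 37.5% in wild type. The 5′-end peaks without a partner numbered 669 in the mutant and 755 in wild type, and their genes had a peak elsewhere in the other list in 508 (75.9%) and 524 (69.4%) of the cases. Among unshared peaks outside the first 100 bases these shares were 74.3% in the mutant and 63.8% in wild type. Both replicates reached a log2 enrichment of 1 at 58.8% of mutant and 59.7% of wild-type 5′-end peaks. This held for 64.6% of all mutant peaks and 68.2% of all wild-type peaks. The share was lower than at the 5′ end in each bin of 100 bases after base 100 and up to base 500. These bins had 52.2% to 55.8% in the mutant and 52.6% to 58.7% in wild type.

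**Figure D4:**
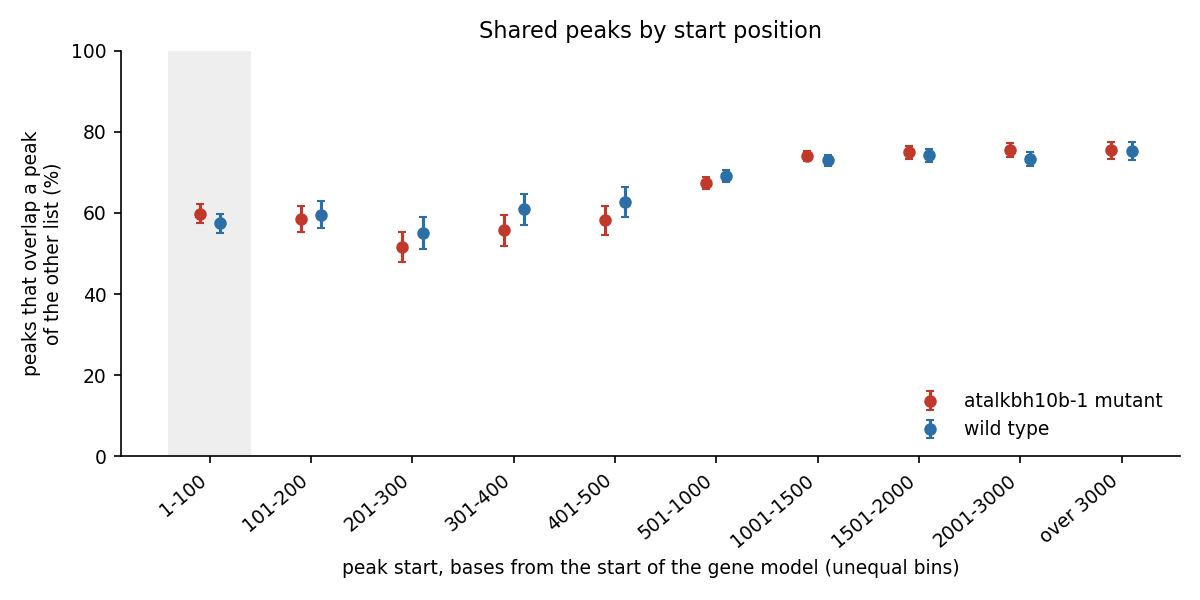
Share of peaks that overlap a peak of the other genotype's list (y axis, percent) by start position along the gene model (x axis, unequal bins), for the mutant (red) and wild type (blue), with exact binomial 95% intervals. In the shaded first bin 59.9% of mutant and 57.5% of wild-type peaks were shared, and beyond base 3000 the share was 75.4% in both.

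Counted by genes, 2585 of the 14304 genes with any listed peak (18.1%) had a peak at the 5′ end in at least 1 list. In 857 genes both lists had one, which is 51.4% of the mutant set and 48.3% of the wild-type set. In 810 further genes the mutant list alone had one, and in 918 genes this was so of wild type; 649 and 687 of these had some peak in the other list. That includes overlapping peaks that start past base 100, which were the partners of 141 mutant and 163 wild-type 5′-end peaks. A transcript that is scarce in 1 genotype can also be missing from its list. Transcript amounts were not examined, so a peak in 1 list alone is not thereby a difference in methylation.

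Genes of the m6A pathway were looked at first. ALKBH10B (AT4G02940), the demethylase gene that is lesioned in the mutant, had its first listed peak at bases 551 to 650 in the mutant and at bases 531 to 770 in wild type, outside the interval. Of the 18 machinery genes with any peak, 1 had a 5′-end peak (5.56%, against 18.1% of all listed genes), a list too short to set apart from that background. It was ECT10 (AT5G58190), a YTH-domain reader gene, at bases 51 to 198 in the wild-type list alone, with log2 enrichments of -1.93 and 8.06. Replicate 1 was thus below 0 and replicate 2 far above it. The writer genes MTA, MTB, FIP37 and VIR had none.

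Flowering-time genes had 5′-end peaks in both directions, 5 in each list and 8 of 32 listed genes in all (25.0%, against 18.1% of all listed genes). FVE (AT2G19520), a chromatin factor of the autonomous pathway, had 5.58 and 10.66 in the mutant at bases 77 to 236, against 1.97 and 5.06 in wild type at bases 48 to 203. The genotypes did not overlap. TOE1 (AT2G28550), an AP2-like repressor of FT, had 6.17 and 0.87 in the mutant, against 1.83 and 1.21 in wild type, so its groups overlapped. At its relative TOE2 the wild-type peak started at base 36 (3.65 and -0.52), and the overlapping mutant peak started at base 151 (2.25 and 1.36).

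FKF1 (AT1G68050), which senses blue light to time flowering by day length, had a mutant peak at bases 25 to 186 with 5.20 and 4.43, overlapping a wild-type peak at bases 141 to 281 with 0.38 and 2.12. FT and TEM1 had 5′-end peaks in the mutant list alone. FT (AT1G65480), the mobile flowering signal, had 5.43 in replicate 1 and was listed at 0 in replicate 2, while TEM1 (AT1G25560), a repressor of FT, had close values of 1.92 and 2.30. In wild type alone stood SPL10 (AT1G27370), a phase-change factor, cut at base 1 with 3.68 and 7.11, and FLK (AT3G04610), an RNA-binding protein of the autonomous pathway, with -0.76 and 1.46. In the FLK peak, only replicate 2 was above 1.

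Genes known for open reading frames in their leaders, which lower translation of the main frame, had 5′-end peaks in 4 of 16 listed cases (25.0%, against 18.1% of all listed genes). ARF2 (AT5G62000), an auxin response factor gene, had low and close values in both lists, 1.11 and 0.73 in the mutant and 0.94 and 1.21 in wild type. SACL1 (AT5G09460), a relative of the translation-controlled factor SAC51, had a broad wild-type peak at bases 63 to 402 with 1.83 and 0.59, and an overlapping mutant peak at bases 105 to 370 with 1.73 and -0.27, just outside the rule. bZIP53 (5.07 and 2.07 in wild type) and XPL1 (1.40 and 2.16 in wild type), a phosphocholine synthesis gene, had one in the wild-type list alone. The sucrose-responsive factor gene bZIP11, a textbook case of such control, had none.

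Genes of cap binding, translation initiation and mRNA decay had 6 of 22 (27.3%, against 18.1% of all listed genes). PAB2 (AT4G34110), a poly(A)-binding protein gene, had 3.46 and 3.81 in the mutant, against 2.34 and 2.00 in wild type. The genotypes did not overlap. PAB4 had 3.03 and 2.81 in the mutant and 2.83 and 2.00 in wild type, EIF4A1 (the helicase eIF4A) 0.91 and 1.67 against 1.49 and 1.25, and EIFISO4G1, a scaffold of the plant cap-binding complex, 1.19 and 1.15 against 1.06 and 0.79. EIF4E, the cap-binding protein gene, had one in wild type alone (1.70 and 1.15). ABH1 (AT2G13540), the large nuclear cap-binding subunit, had 9.82 and 0.71 in the mutant, where the overlapping wild-type peak began at base 179. 

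Nuclear photosynthesis genes had 5′-end peaks in 13 of 36 listed genes (36.1%, against 18.1% of all listed genes), with 9 in both genotypes, 4 in wild type alone and 0 in the mutant alone. Their levels were mostly low. PETE2 (AT1G20340), a plastocyanin gene, had 2.53 and 2.25 in the mutant, against 2.29 and 2.47 in wild type, and its copy PETE1 had 2.33 and 1.12 against 1.75 and 1.98. RBCS2B (AT5G38420), a Rubisco small subunit gene, had 1.71 and 1.44 in the mutant, against 1.58 and 1.82, and its neighbour RBCS1B, of nearly the same sequence, had 1.5 and 1.2 against 1.5 and 1.56. PSBO1, of the oxygen-evolving complex, had 1.36 and 1.40 against 1.09 and 1.33, and PSAK, of photosystem I, 1.03 and 1.03 against 1.09 and 1.13. PSAD2, also of photosystem I, had 1.01 and 2.28 in wild type, where the overlapping mutant peak began at base 103. PSAG, of the same complex, had 0.66 and 1.01 in wild type, where the overlapping mutant peak began at base 145. LHCB2.1, an antenna gene with a near-identical copy, departed from this with 0.09 and 1.17 in the mutant and 2.80 and -0.35 in wild type. For RBCS, LHCB1 and LHCB2 genes the authors' read assignment between copies is unknown, so their values are uncertain.

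The remaining lists were small, and shares in them are to be read against the same 18.1%. Clock genes had 3 of 13, with ELF4 (AT2G40080), of the evening complex, in both genotypes (4.46 and 0.90 in the mutant, 2.57 and 3.79 in wild type), RVE4 in the mutant alone and ELF3 in wild type alone. Light-signalling genes had 3 of 15, PIF3 in the mutant alone (2.44 and 8.95) and the photoreceptor genes PHYA (5.26 and -0.08) and CRY1 (1.81 and 0.91) in wild type alone. Root markers had 2 of 7, IRT1 (AT4G19690), the root iron transporter, with 1.82 and 2.31 in the mutant against 2.74 and 3.43 in wild type, and CASP1, of the Casparian strip, with 1.58 and -2.38 against 1.92 and 0.64. Of the trichome genes, MYB23 alone had one, in wild type (2.61 and 3.49). Reference transcripts had 3 of 13, UBQ10 in both lists (1.43 and 1.67 in the mutant, 1.22 and 1.14 in wild type) and GAPC2 and SAND in the mutant. GAPC2 had 1.24 and 1.63 in the mutant from base 99, and its overlapping wild-type peak, with 1.01 and 1.46, began at base 102, just past the threshold. SAND had 4.89 and 0.05 in the mutant, and its overlapping wild-type peak, with -3.11 and 2.55, began at base 191. Some listed peak was present in 36 of 39 photosynthesis genes and 7 of 7 root markers. A listed peak does not measure the amount of a transcript, so the shoot and root content of the samples was not tested. Over the 10 lists, 20 genes had a 5′-end peak in both genotypes, 8 in the mutant alone and 16 in wild type alone, of 177 with any peak.

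The genotypes were then compared at the 849 pairs in which both peaks start within the first 100 bases and each is the other's largest overlap. The borders differed between lists, with the same start in 59 pairs and a median shift of 13 bases. No pair passed at an adjusted p under 0.05 (limma on all 13875 shared pairs, Benjamini-Hochberg adjustment; smallest adjusted p 0.9996), which held for all pairs as well, a background of 0%. In simulated pairs with the spread of these replicates the same test called none of the shifts planted, the largest included, so the absence of calls does not show whether any pair differed. At an unadjusted limma p under 0.05 stood 13 of the 849 (1.53%), 9 higher and 4 lower in the mutant. Over all pairs there were 491 (3.54%), 286 higher and 205 lower, so the share at the 5′ end was below the background.

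By size, 278 of the 849 (32.7%) were higher in the mutant by a factor of 1.5 or more, 204 (24.0%) were lower by that factor and 367 lay between. Over all shared pairs 32.4% were higher and 32.1% lower, so the share of higher pairs was near the background and the share of lower pairs was below it. The 2 mutant values exceeded the 2 wild-type ones at 135 pairs (15.9%) and were below them at 74 (8.72%), where all pairs had 13.7% and 15%.

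More pairs were thus higher than lower at the 5′ end, through a smaller share of lower pairs. The median difference was 0.07 on the log2 scale at the 5′ end and -0.02 over all pairs. Without mutant replicate 1, it was -0.02 at the 5′ end and -0.13 over all pairs, and higher and lower pairs were then nearly equal in number at the 5′ end, with 276 higher and 281 lower (33.1% lower, against 38.8% of all pairs). Without mutant replicate 2 it was 0.20 at the 5′ end and 0.02 over all pairs, with 315 higher and 193 lower (22.7% lower, against 34.1%). Without wild-type replicate 1 it was 0.04 against -0.04 over all pairs, and without wild-type replicate 2 it was 0.12 against 0.06. With each library centred on its median over all shared pairs, it was 0.15 at the 5′ end and 0.06 over all pairs. At the 5′ end 304 were then higher and 192 lower (35.8% and 22.6%, against 34.4% and 30.2% of all pairs). Per library, the median over the 849 pairs was 1.94 and 1.73 in the mutant and 1.67 and 1.86 in wild type, so the genotypes overlapped. Among the 353 pairs with a log2 enrichment of at least 1 in every library, 118 were higher (33.4%) and 52 lower (14.7%). Over all 8026 shared pairs within that limit, 32.8% were higher and 29.2% lower.

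The pairs with the largest differences, chosen for their size among those whose values did not overlap, are a description with no test. NF-YC9 (AT1G08970), which encodes an NF-Y transcription factor subunit, had the closest replicates of the 8 highest, with 9.25 and 9.59 in the mutant against 0.99 and 1.34 in wild type. CYP71B11 (AT5G25120), a cytochrome P450 gene, had 10.88 and 8.43 against 1.93 and 3.82. GAI (AT1G14920), a DELLA repressor of gibberellin responses, had 6.87 and 10.04 against 3.06 and 4.44. In these 3 genes both mutant values exceeded the higher wild-type value by more than 2 log2 units, which also held for SZF1 and CAS1, given below. RGA1, a further DELLA gene, named for a high lowest value, had 3.56 and 6.67 in the mutant and 3.17 and 3.5 in wild type.

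The other 5 high pairs had wide replicates. SZF1, a stress-induced zinc finger gene, had 8.68 and 10.62 in the mutant against -1.15 and 5.88 in wild type, and the aquaporin gene PIP2;4 had 10.15 and 6.60 against 4.99 and -2.29. CAS1, the cycloartenol synthase of sterol synthesis, had 4.07 and 10.18 against 0.73 and 1.72. ASG8 and the chromatin remodeller gene CHR4 reached 9.20 and 9.28 in mutant replicate 2, with 3.08 and 1.80 in replicate 1.

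Among the 8 lowest, NRPB7 (AT5G59180), a subunit of RNA polymerase II, had close replicates, with 3.14 and 2.86 in the mutant against 6.92 and 8.30 in wild type. CYP79B3 (AT2G22330), which starts indole glucosinolate synthesis from tryptophan, had 2.96 and 0.50 against 10.04 and 5.23, and the transporter gene ABCB6 had 4.1 and -1.01 against 8.69 and 4.40. nPAP, a nuclear poly(A) polymerase, had 1.82 and 1.1 against 6.94 and 3.20. The last 4, LSU2, SVR7, RD28 and GSTU27, had mutant values of 2.35 or less in both replicates and wild-type values between 1.6 and 7.76, both bounds in LSU2. RD28 is an aquaporin gene beside a copy of nearly the same sequence, so its value is uncertain.

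Of the 849 pairs, 353 had a log2 enrichment of at least 1 in all 4 libraries. Among genes with a symbol, the lowest of the 4 values was highest at CML42 (AT4G20780), a calmodulin-like gene, with 8.23 and 7.84 in the mutant and 6.34 and 5.17 in wild type. CDC20.2, an activator of the anaphase-promoting complex with a near-identical copy, followed with 7.34 and 7.77 in the mutant and 5.07 and 3.67 in wild type. FRS3, the thymidine kinase gene TK1a and SIP1 came next, with lowest values between 3.49 and 3.62. By the mean of the mutant and wild-type widths, the widest of the 849 pairs in a gene with a symbol lay in PHR2, at bases 100 to 493 in the mutant and 97 to 490 in wild type, with 1.59 and 0.89 in the mutant and 1.37 and 1.11 in wild type. It was followed by those of NCED4, Mfl1 and UGT72E2.

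**Figure D5:**
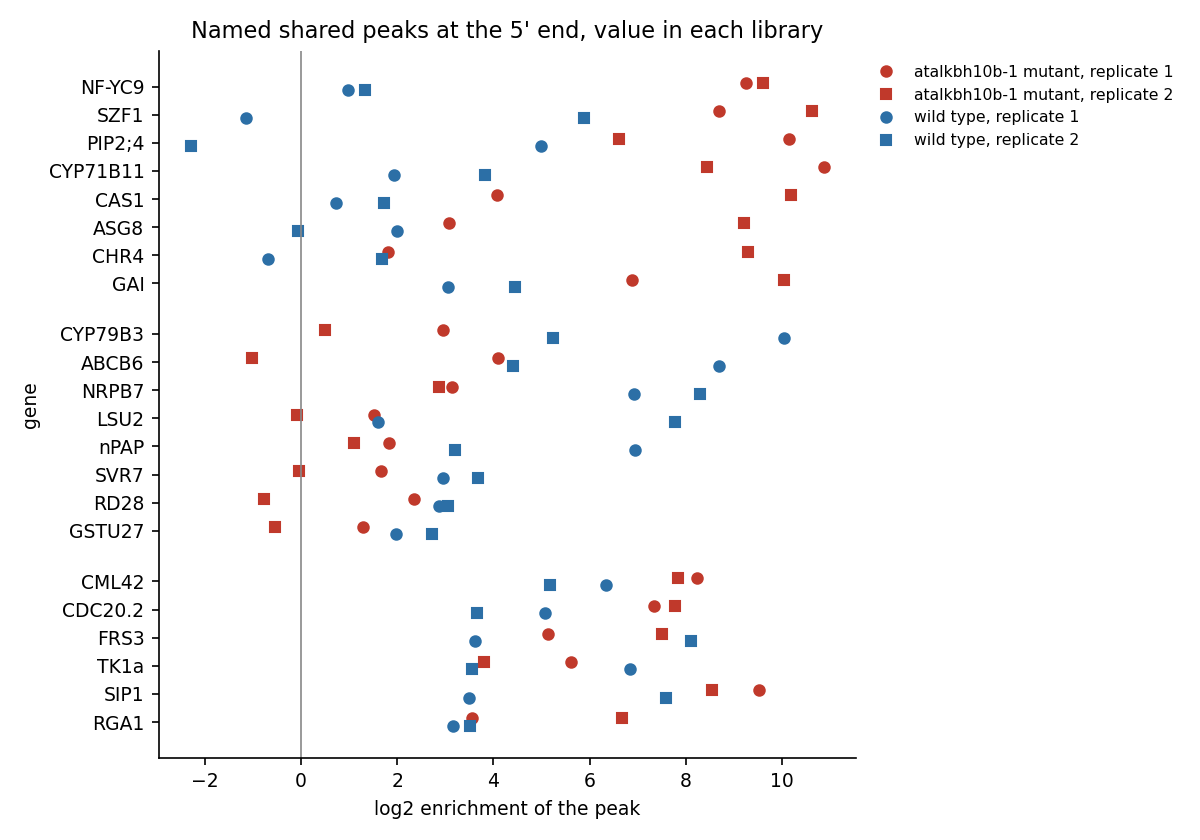
Log2 enrichment (x axis) in each library of named shared 5′-end peaks (rows), red for the mutant and blue for wild type, circles for replicate 1 and squares for replicate 2; from the top, the 8 largest positive and 8 largest negative differences among peaks whose genotypes do not overlap, and the 6 with the highest lowest value. NF-YC9 has mutant values of 9.25 and 9.59 against 0.99 and 1.34, while ASG8 and CHR4 have 1 high mutant value each.

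Some 5′-end peaks without a partner repeated well between replicates. In the mutant list, the highest were PSD3 (AT4G25970), a phosphatidylserine decarboxylase gene, cut at base 1 with 11.41 and 10.81, the flavonoid hydroxylase gene TT7 at bases 33 to 191 with 9.97 and 11.13, the cell-cycle kinase gene CDKB1;1 with 10.32 and 9.47, and NAC053, of the NAC transcription factors, with 8.28 and 8.97. PSD3 and NAC053 had peaks elsewhere in the wild-type list, while TT7 and CDKB1;1 had none there. In the wild-type list, the highest were AT1G13210 with 9.12 and 9.22, the nuclease gene ENDO2 (AT1G68290), cut at base 1, with 8.90 and 8.82, IMS2 (AT5G23020), of glucosinolate side-chain elongation, with 8.94 and 8.16, and the cation exchanger gene CHX17 with 8.05 and 10.75. IMS2 had a peak elsewhere in the mutant list and the other 3 had none. Whether few reads in the inputs underlie such high values was not tested.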

How the data were processed

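Each genotype has 1 peak list. Its rows, per the file headers, name the gene, the first and last base along the gene model and the log2 enrichment that the authors computed per replicate. The submitters' processing notes list TopHat2 2.0.14, edgeR and TAIR10 without saying what each did. Which program called the peaks, at which thresholds, how enrichment was calculated and whether introns count in positions is not stated. The headers name 3 replicates; the 2 columns of the third match no sample and were left out. No read counts were analysed, so depth is unknown.

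Peaks counted as shared when they overlapped by 1 base or more in the same gene. The genotype comparison used limma 3.58.1 (R 4.3.3) over all shared pairs, without a replicate block. On simulated data with the replicates' own spread it called no planted shift; with a much smaller spread it recovered most of the larger ones. Exact permutations ran over libraries. Other steps ran in Python 3.11.15 with pandas 2.3.3, numpy 2.4.6, scipy 1.17.1 and matplotlib 3.10.9. Of the 2585 genes with a 5′-end peak, 2556 matched RefSeq's gene table for TAIR10.1, and 1372 had a symbol there. That table holds no strand and no sequence, so a planned check of positions by strand was not made and no sequences are shown.

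The members, the 10 gene lists (210 genes) and the tests were chosen with earlier results of these data known. The genes named are all m6A, leader and flowering list members with a 5′-end peak, up to 4 of each other list by mean enrichment and, among genes with a symbol, the largest differences in each direction without overlap of values, the highest lowest values, the widest peaks and the best repeated peaks without a partner. Further photosynthesis, translation and family members were named after their values were seen. Alternatives were other start limits, overlaps, enrichment limits, gene sets, centring, a ratio of 2, a replicate block and leaving out each replicate.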

Additional observations from a re-analysis of the deposited data

How the results depend on the processing

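Of the 117 values recomputed under an alternative, 75 stayed within the spread between replicates, the counting interval or 1.5 times the count, and 42 moved. Part of the 75 could not have moved, so their number does not measure stability. A 5′-end minus other median without 1 of 2 replicates always stays within their SD. A replicate block cannot change a difference, a ratio of 2 cannot change a median, and limma could call no pair. With starts up to base 50, the mutant list held 848 peaks (4.1% of the list, 55.1% shared) and the wild-type list 905 (4.41%, 53.1%). With starts up to base 200 they held 2620 (12.7%) and 2669 (13.01%). With both replicates at 1 or more, they held 981 (7.34%) and 1060 (7.57%). With the same limit on the partner peak, 40.4% and 38.8% of these were shared. With any listed partner, 612 of the 981 and 649 of the 1060 were shared. The share of the list was 7.38% in the mutant and 7.86% in wild type without peaks cut at base 1, an alternative chosen after seeing the data, and 9.08% in wild type over genes that overlap no other. Overlap over at least 50% of both peaks left 48.9% of mutant and 46.1% of wild-type peaks shared.

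The median at the 5′ end minus that of other peaks was -0.19 in the mutant and -0.44 in wild type for starts up to base 50 (difference 0.25), -0.54 and -0.78 up to base 200, -0.68 and -0.84 for shared peaks, and -0.34 and -0.58 in genes that overlap no other. After the data were seen, 2 further comparisons were added. Against starts after base 100 and up to base 500 it was 0.22 and 0.16 (difference 0.062), and in genes with 1 peak -1.01 and -1.06 (difference 0.049). Within genes, with the highest other peak, it was -0.71 and -0.92 (difference 0.21). Leaving out each replicate gave -0.46 to -0.41 in the mutant and -0.66 to -0.60 in wild type.

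At shared pairs, a ratio of 2 gave 193 higher and 135 lower, and a log2 enrichment of 1 or more in every library gave 118 and 52 (69.4% of called pairs higher, against 57.7%). No alternative gave a pair past an adjusted p of 0.05 in limma. With the replicate block, 0 pairs passed, and 22 had an unadjusted p under 0.05, against 13 without it. Deviations of same-numbered replicates correlated at 0.01 over all pairs, so the numbers are not shown to pair the samples. Causes were not tested. With 2 libraries per genotype and this spread, the limma test could not call differences at single pairs, whether small or large, and depths are unknown.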

Other observations

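The share of genes with a 5′-end peak varied between gene families. Families were read from gene symbols, after the values had been seen, and 125 had at least 8 listed genes; the median share of genes with a 5′-end peak in either list was 15.0%, and 28 families had none. At 50% or more stood 5 families. The fasciclin-like arabinogalactan proteins (FLA), which are cell-wall glycoproteins, had 8 of 11 (72.7%, exact binomial 95% interval 39.0 to 94.0), with 5 in the mutant and 6 in wild type. The long-chain acyl-CoA synthetases (LACS) had 5 of 8 and the phosphate transporters (PHT) 5 of 9. Plasma membrane aquaporins with a PIP symbol had 7 of 12, a count that leaves out RD28, an aquaporin gene with another symbol. Genes with ACA symbols had 4 of 8, all 4 of them calcium pumps. All listed genes together had 18.1%. Other families of membrane and cell-wall proteins lay on both sides of that share. Below it were the syntaxins (SYP) with 0 of 16, the ABCG transporters with 2 of 21, the TBL genes with 2 of 23 and the xyloglucan-modifying XTH enzymes with 2 of 14. Above it were the ABCB genes with 5 of 14, the EXPA genes with 3 of 9, the AGP genes with 4 of 13 and the ABCC genes with 3 of 11.

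Levels differed between members of the FLA, LACS, PIP and PHT families. FLA1 (AT5G55730) had 2.42 and 2.74 in the mutant and 3.27 and 2.12 in wild type, and LACS1 had 2.12 and 2.92 in the mutant and 0.66 and 3.33 in wild type. The aquaporin gene PIP1;4 had 1.40 and 1.73 in the mutant and 1.61 and 0.96 in wild type, whereas PIP2;5 had a peak in wild type alone, with 5.13 and 7.17. Members of a family share sequence, and how the authors split reads between them is unknown. The families were chosen for their shares, so these counts are a description with no test.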
